A study of Mus musculus with 2 samples.

Results

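The genes described here belong to the response of islets to prolactin and to the synthesis of serotonin. They are 10 genes chosen by name, Prlr, Cish, Socs2, Tph1, Tph2, Ddc, Tnfrsf11b, Matn2, Ivd and Men1, and they were read from every array feature (probe set) whose single gene symbol was among these names. Of the 10 genes 9 had such a probe set, with 20 probe sets in all, out of 18193 genes and 45101 probe sets on the array. Prlr, the prolactin receptor, had none under this rule and its level was not analysed here. The choice of genes drew on these same measurements, so their differences between the arrays are a description and carry no test.

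The samples were total RNA of pancreatic islets from male mice aged 6 weeks, with 1 array for each of 2 genotypes. The transgenic sample, labelled Ripmir, came from mice that overexpress miR-141 and miR-200c. The control sample came from mice labelled C57Bl6. The islets received no treatment after isolation in either group. The labels give neither the number of mice behind a sample, nor the promoter of the transgene beyond the name Ripmir, nor whether the controls were littermates. With n = 1 per genotype the values have no replicate error, differences cannot be checked in a second sample of a group, and no p-value was computed. Higher and lower describe these 2 arrays only.

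Prolactin and the placental lactogens bind the prolactin receptor, which activates the kinase Jak2 and the transcription factors STAT5A and STAT5B. STAT5 enters the nucleus and switches on genes such as Cish and Socs2, whose proteins restrain the same receptors. In islets of pregnant mice this pathway accompanies the growth of the beta cell mass. Beta cells then also make serotonin, through a tryptophan hydroxylase, Tph1 or Tph2, followed by the decarboxylase Ddc.

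The overexpressed microRNAs are shown because the genotype label of the transgenic sample names them. Capitals mark the seed, bases 2 to 8, which pairs with target messenger RNAs. The seeds differ at a single position, C4U when counted from the 5′ end of miR-141-3p. The sequences are those of RefSeq for GRCm38.p6.
mmu-miR-141-3p: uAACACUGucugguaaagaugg
mmu-miR-200c-3p: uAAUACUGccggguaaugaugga

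Promoter sequences were compared because Cish and Socs2 are textbook direct targets of STAT5, with which the expression of the other genes is contrasted. RefSeq promoters of GRCm38.p6, from 250 bases before to 50 after an annotated start, were found for 7 of the 10 genes. Matn2, Tnfrsf11b and Socs2 had no entry. The core motif bound by STAT proteins, TTCNNNGAA, was searched for. It is its own reverse complement, so a match counts for both strands. Of 32851 windows of the same length 8.3% held at least 1 match and 0.457% held 2 or more. The Cish window held 2 matches, at bases 1 to 9 and 12 to 20 after the start. The Ivd window held 1, from 88 to 80 bases before the start. Prlr held 1 match in 1 of its 3 windows, TTCTAGGAA at 110 to 102 bases before the start. The single window of Tph2, both windows of Tph1, both of Ddc and all 3 of Men1 held none. A match is a run of letters and not a measured binding site, and a window without a match says nothing of STAT5. The windows of Cish, Ivd, Tph2 and Tph1 are printed with the matches in capitals, so that a direct target can be read beside the other genes.
Cish, chr9:107296409-107296708, plus strand: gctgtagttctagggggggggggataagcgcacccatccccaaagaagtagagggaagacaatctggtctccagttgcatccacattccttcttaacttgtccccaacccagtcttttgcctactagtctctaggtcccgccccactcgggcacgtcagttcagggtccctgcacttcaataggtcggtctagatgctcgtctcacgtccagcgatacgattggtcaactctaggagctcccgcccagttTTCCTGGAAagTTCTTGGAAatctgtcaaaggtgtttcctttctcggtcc
Ivd, chr2:118861744-118862043, plus strand: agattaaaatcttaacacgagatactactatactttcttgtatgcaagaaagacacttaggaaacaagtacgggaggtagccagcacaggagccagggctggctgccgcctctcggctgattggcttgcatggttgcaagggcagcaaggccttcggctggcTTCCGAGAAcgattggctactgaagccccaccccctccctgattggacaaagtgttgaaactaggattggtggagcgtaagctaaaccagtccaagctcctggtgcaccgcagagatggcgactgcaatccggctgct
Tph2, chr10:115184973-115185272, minus strand: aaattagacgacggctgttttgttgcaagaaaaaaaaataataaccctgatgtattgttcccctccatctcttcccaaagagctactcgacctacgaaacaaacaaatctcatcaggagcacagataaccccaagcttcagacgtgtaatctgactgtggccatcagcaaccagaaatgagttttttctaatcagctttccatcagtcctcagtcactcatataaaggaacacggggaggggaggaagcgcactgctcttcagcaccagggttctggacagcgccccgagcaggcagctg
Tph1, chr7:46667328-46667627, minus strand: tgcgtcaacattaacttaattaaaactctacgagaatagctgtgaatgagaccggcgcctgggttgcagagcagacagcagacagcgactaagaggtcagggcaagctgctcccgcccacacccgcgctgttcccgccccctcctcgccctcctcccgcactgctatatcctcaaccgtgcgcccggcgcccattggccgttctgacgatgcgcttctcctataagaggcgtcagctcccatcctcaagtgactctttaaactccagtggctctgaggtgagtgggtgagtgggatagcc
Tph1, chr7:46672488-46672787, minus strand: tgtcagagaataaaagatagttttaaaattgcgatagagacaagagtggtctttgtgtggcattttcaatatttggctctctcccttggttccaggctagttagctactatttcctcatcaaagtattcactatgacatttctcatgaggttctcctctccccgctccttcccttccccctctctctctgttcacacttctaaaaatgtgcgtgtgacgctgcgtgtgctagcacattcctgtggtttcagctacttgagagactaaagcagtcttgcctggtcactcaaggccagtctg

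Deposited values are log2 RMA values, for which 1 unit is a 2-fold difference. The median of all values, 5.76, served as a floor, and a gene was kept when its probe set with the highest mean over both arrays reached the floor on at least 1 array. The floor is not a detection limit, since the values carry no detection call. All differences are the transgenic minus the control log2 value. Both arrays had a median of 5.76, and the median difference of the 12143 genes kept was 0.029. The array's own hybridisation controls had a median difference of 0.40 over 18 probe sets and its poly-A spikes one of 1.51 over 24. The part of these control signals in the differences below was not tested. Islet RNA was present on both arrays, with Ins2, an insulin gene, at 14.95 (transgenic) and 15.02 (control) and Gcg, the glucagon gene, at 14.13 and 14.19. The label names beta cells as the source, but Cpa1, a digestive enzyme of acinar cells, also stood near the top of the scale, at 14.17 and 14.04.

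Of the 10 genes 8 were kept. At least 2-fold higher in the transgenic sample were 3 of these 8, Matn2, Tph2 and Tnfrsf11b, where 2.51% of all kept genes were (305 of 12143). None of the 8 was 2-fold lower, where 0.511% of all kept genes were (62 genes). The genes were chosen with this comparison known, so nothing is read from these shares. The other 5 lay between -0.34 and 0.45. Over the 8 the median difference was 0.40.

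**Figure D1:**
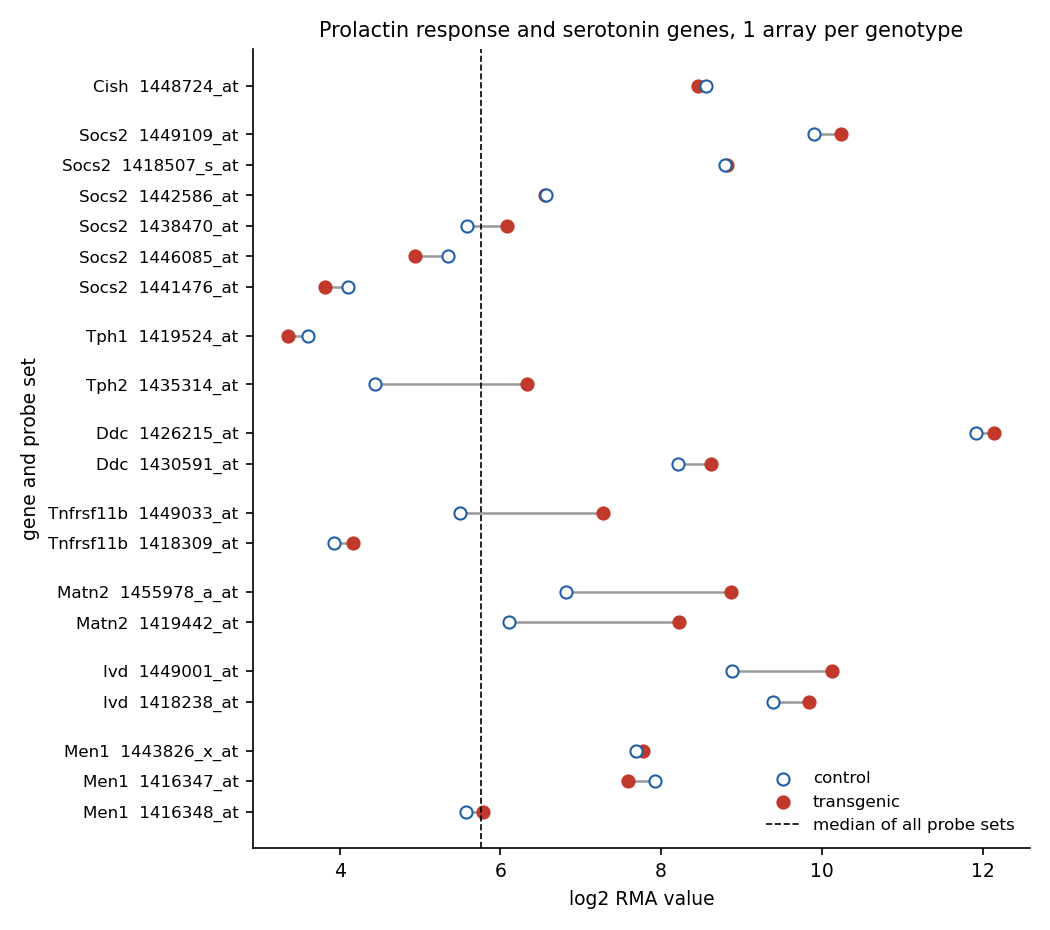
Log2 RMA value (x axis) of each of the 20 probe sets (y axis) of the 9 measured genes, with the control array as open circles and the transgenic array as filled circles, 1 array each. The dashed line is the median of all probe sets, 5.76; the wide gaps belong to Matn2, Tph2, 1 probe set of Tnfrsf11b and 1 of Ivd, and both Tph1 values lie left of the line.

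The direct STAT5 targets differed by less than 2-fold between the arrays. Cish, which encodes an inhibitor of cytokine receptor signalling, was read by 1 probe set at 8.46 (transgenic) and 8.56 (control). Its difference of -0.11 ranked 8326 from the highest among the 12143 kept genes. Both Cish values lay above the floor and close together. Socs2, a suppressor of growth hormone signalling, had 6 probe sets. The brightest, 1449109_at, read 10.24 (transgenic) and 9.90 (control), a difference of 0.34. The next, 1418507_s_at, read 8.82 and 8.79. Probe set 1442586_at read 6.55 and 6.57, and 1438470_at read 6.09 and 5.59, with its control value under the floor. The 2 others, 1446085_at and 1441476_at, lay under the floor on both arrays, at 4.93 and 5.35 and at 3.82 and 4.10. Of the 6 probe sets 3 were higher and 3 lower in the transgenic sample, and their mean difference was 0.026. The 3 lower ones include the 2 under the floor on both arrays, so no direction is read from this count or mean. The 4 that reached the floor on at least 1 array lay between -0.017 and 0.50. No probe set of Cish or Socs2 reached 2-fold.

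Of the serotonin enzymes Tph2 alone differed by 2-fold. Tph2, the tryptophan hydroxylase best known from neurons of the brain stem, was read by 1 probe set at 6.34 (transgenic) and 4.44 (control). This difference of 1.90, or 3.72-fold, ranked 40 from the highest among all kept genes. The control value lay under the floor, so the array background limits the fold. The transgenic value stood 0.58 above the floor, or 1.49-fold, and with values under the floor raised to it, a setting chosen after seeing the data, Tph2 did not pass the 2-fold rule.

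Tph1, the tryptophan hydroxylase of gut and mast cells and the form raised most in islets of pregnant mice, read 3.36 (transgenic) and 3.61 (control). Both values were under the floor and among the lowest 13.5% of all probe set values of their array, so no direction is given for Tph1. Ddc, the decarboxylase that completes serotonin synthesis and also makes dopamine, stood high on both arrays. Its brighter probe set, 1426215_at, read 12.15 and 11.92, and the other, 1430591_at, read 8.63 and 8.21 (transgenic first). The differences of 0.23 and 0.42 had the same sign and neither reached 2-fold.

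Tnfrsf11b encodes osteoprotegerin, a secreted decoy receptor for the ligand RANKL that has been tied to beta cell replication. Its brighter probe set, 1449033_at, read 7.28 (transgenic) and 5.50 (control), a difference of 1.78, or 3.43-fold. The control value was 0.26 under the floor. With it raised to the floor the difference was 1.52, still past 2-fold. The other probe set, 1418309_at, was under the floor on both arrays, at 4.16 and 3.92, with a difference of 0.24. When both probe sets were averaged, its mean lay under the floor on both arrays and Tnfrsf11b was no longer kept.

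Matn2, the extracellular matrix protein matrilin 2, was the member furthest higher. Its probe sets read 8.86 against 6.81 (1455978_a_at) and 8.22 against 6.11 (1419442_at), with the transgenic value first. The differences were 2.05 and 2.12, or 4.15-fold and 4.33-fold, and all 4 values lay above the floor. Matn2 ranked 27 from the highest among kept genes. It was the single member that stayed at least 2-fold higher with the floor moved to the 75th percentile of all values, 7.81, because Tph2 and Tnfrsf11b lay under that floor on both arrays.

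Ivd encodes isovaleryl-CoA dehydrogenase, a mitochondrial enzyme of leucine breakdown. Its probe set 1418238_at read 9.84 (transgenic) and 9.39 (control), and 1449001_at read 10.13 and 8.88. The differences were 0.45 and 1.26, the second past 2-fold at 2.39-fold. Both probe sets were bright, with means over the arrays of 9.61 and 9.50, and the first stood for the gene by a margin of 0.11. Taking the other, a setting chosen after seeing the data, would bring the members past 2-fold to 4, and averaging them gave 0.86. Among the 5180 genes with several probe sets at the floor, the differences of a gene's probe sets were a median of 0.28 apart, and in 7.62% they were at least as far apart as the 0.80 of Ivd.

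Men1 encodes menin, a tumour suppressor that restrains beta cell growth and that prolactin lowers in islets. Probe set 1416347_at read 7.58 (transgenic) and 7.92 (control), a difference of -0.34. Probe set 1443826_x_at read 7.77 and 7.69, and 1416348_at read 5.78 and 5.57. These 2 differences, 0.082 and 0.21, had the opposite sign, so the direction of Men1 depended on the probe set.

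Setting the 4 genes Tph1, Tph2, Tnfrsf11b and Matn2 against the direct targets Cish and Socs2 gave medians of 1.84 and 0.12, which are 1.72 apart. The lowest of the 3 kept genes of the first set, Tnfrsf11b, was 1.44 above the higher of the direct targets, Socs2. Tnfrsf11b and Tph2 reached the floor on the transgenic array only, so this gap depends on values under the floor. With such values raised to the floor, Tph2 was the lowest of the 3 at 0.58, beside Socs2 at 0.34. In that setting the medians were 0.93 apart. Tph1 entered these medians with values under the floor on both arrays, so its place on either side is not known.

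**Figure D2:**
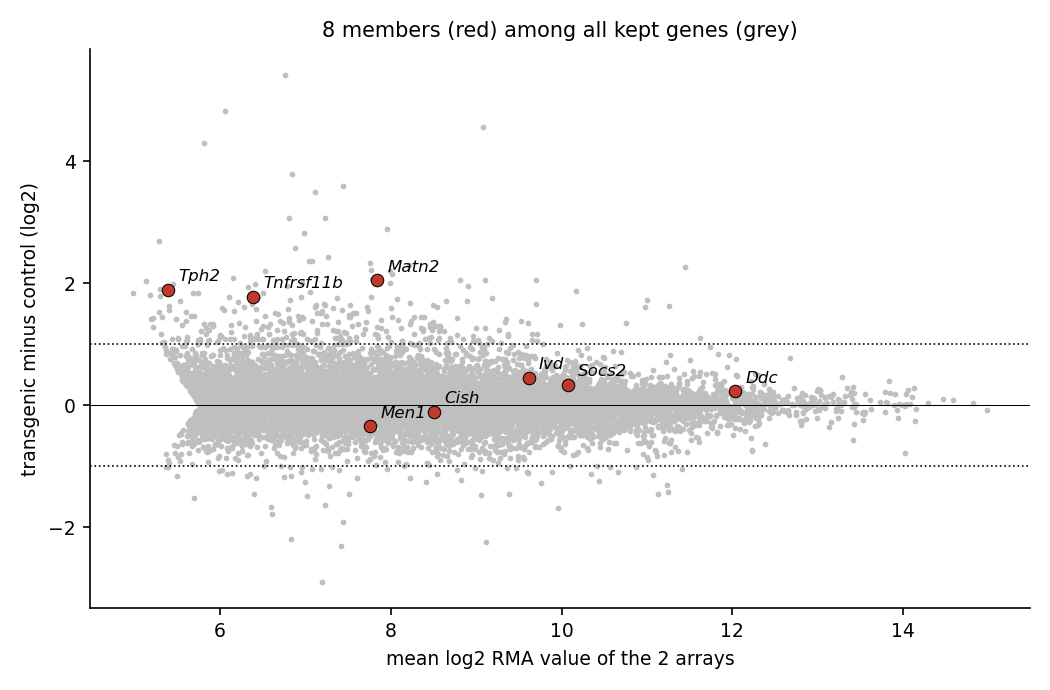
Transgenic minus control log2 difference (y axis) against the mean log2 RMA value of both arrays (x axis) for the 12143 kept genes in grey and the 8 kept members in red, with dotted lines at 2-fold. Matn2, Tnfrsf11b and Tph2 lie above the upper line, at 2.05, 1.78 and 1.90, and Ivd, Socs2, Ddc, Cish and Men1 lie between the lines.

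The signalling chain around the receptor showed 1 gene past 2-fold. Of 22 listed genes of prolactin receptor to STAT5 signalling 19 were kept, 1 was at least 2-fold higher and none lower, with a median of -0.047. Over all kept genes 2.51% were 2-fold higher and 0.511% lower, so nothing is read from this count. The gene past the rule was Csf2rb, the shared beta chain of the GM-CSF, IL-3 and IL-5 receptors of myeloid cells, at 7.99 against 6.78. For the kinase gene Jak1 the probe set that stood for the gene gave 0.04 and another 0.39, while a dimmer probe set was past 2-fold on the lower side at -1.36 (5.96 against 7.31). Ghr, the growth hormone receptor, read 11.94 and 11.91, the kinase gene Jak2 9.49 and 9.61, Stat5a 7.56 and 7.44, and Stat5b 8.25 and 8.52 (transgenic first). All 8 genes of the SOCS family, the feedback inhibitors to which Cish and Socs2 belong, were kept and none passed 2-fold. Of these 8 genes 2 were above 0, where 54.2% of all kept genes were, and the median was -0.12. Socs3 stood at -0.14 and Socs4 at -0.42.

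Other STAT5 target genes had a median of 0.070 over 15 kept of 18 listed. Of these 1 was 2-fold higher, where 2.51% of all kept genes were. The gene past the rule was Igf1, insulin-like growth factor 1, at 7.25 against 5.80, the control value close to the floor. Its other probe sets stood at 1.42 and 1.65, with control values of 4.34 and 5.58 under the floor. With the floor at the 75th percentile no gene of the list was 2-fold higher. Cdkn1a, the cell cycle inhibitor p21, stood at 0.89 with its other probe set past 2-fold at 1.14, and with probe sets averaged 2 genes of the list passed the rule. Further members were the kinase gene Pim2 at -0.83 and Ccnd2, the cyclin that beta cells need to divide, at 0.14. Other genes raised in islets of pregnant mice had 17 kept of 21 listed, 5 of them 2-fold higher (2.51% of all kept genes were), none 2-fold lower, and a median of 0.47. The 5 were Aass, an enzyme of lysine breakdown, at 5.42 with its control value under the floor, and Mki67 at 1.36, Ccna2 at 1.11 (its other probe set at 0.83), Cdk1 at 1.09 and Ovol2 at 1.03. The count was 4 with probe sets averaged and 4 after a second quantile normalization. This list was chosen with earlier results of these data known, so nothing is read from its share. Mki67, Ccna2 and Cdk1 are genes of dividing cells of any type. The 4 kept genes under 0 were Lonrf3 at -0.77, the lipoprotein receptor gene Vldlr at -0.51 with its 5 other probe sets also under 0, Fkbp11 at -0.40 and the glucose transporter gene Slc2a2 at -0.33.

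The remaining genes of the serotonin pathway stayed inside 2-fold. Of 20 listed genes of serotonin synthesis, cofactor and storage 15 were kept, with a median of -0.063 and Tph2 alone past the rule. Over all kept genes 2.51% were 2-fold higher. Gch1, which makes the cofactor of the hydroxylases, read 10.70 (transgenic) and 11.53 (control), a difference of -0.82 with its other probe set at -0.74. Th, the related tyrosine hydroxylase, stood at 0.93 and the vesicular monoamine transporter Slc18a1 at 0.78. Slc18a2, the other vesicular transporter, and Slc6a4, which takes serotonin back into cells, were under the floor on both arrays. Of 14 listed serotonin receptors 13 had a probe set and 10 of these were under the floor on both arrays, Htr2b among them. The 3 kept were Htr1b at 0.26, Htr3a at 0.22 and Htr1d at 0.068.

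Around the other members, Tnfrsf11b alone was past 2-fold among 6 kept genes of the osteoprotegerin axis (8 listed). Beside this and the further lists here, 2.51% of all kept genes were 2-fold higher. Tnfsf11, which encodes the ligand RANKL, was under the floor on both arrays, and the receptor gene Tnfrsf11a read 5.79 and 6.01. Matn2 was likewise alone past the rule among 5 kept genes of matrilins and their partners (9 listed), with Matn4 at 0.34 and Matn1 and Matn3 under the floor. In leucine breakdown 11 of 14 listed genes were kept, with a median of 0.19. Bckdhb, a subunit of the branched-chain ketoacid dehydrogenase, was 2-fold higher at 1.23, and Ppm1k, its activating phosphatase, stood at -0.60. Of 15 listed genes of the menin complex and its targets 14 were kept, with a median of 0.067. Cdkn2c, the inhibitor p18 whose transcription menin maintains, was at the edge of the rule at 1.01 and under it after a second quantile normalization, and Cdkn1b, the inhibitor p27, stood at -0.28.

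**Figure D3:**
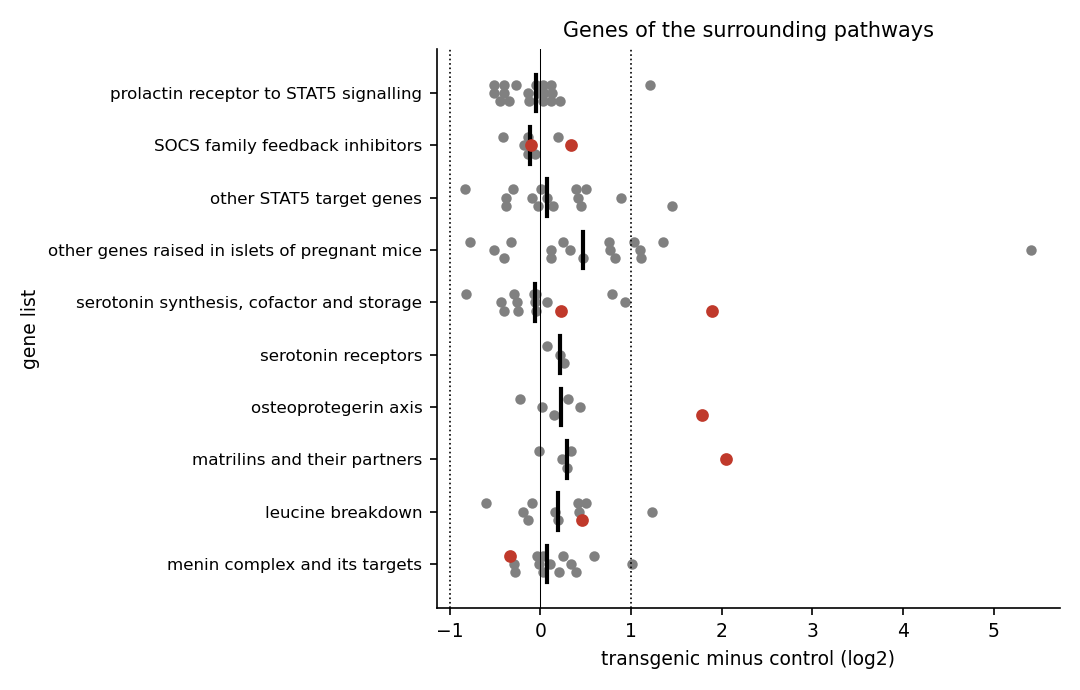
Transgenic minus control log2 difference (x axis) of the kept genes of 10 pathway lists (y axis), with members in red, other genes in grey, each list's median as a bar and dotted lines at 2-fold. Tph2, Tnfrsf11b and Matn2 stand right of the line in their lists, and Aass at 5.42 is the point furthest right.

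Markers of other cell types differed between the arrays as well. In bulk RNA a different number of cells of a type and a different amount of RNA per cell cannot be told apart. Macrophage markers had a median of 0.82, with 10 of 11 kept genes (14 listed) above 0, where 54.2% of all kept genes were. At least 2-fold higher were 3 of them, where 2.51% of all kept genes were. Their values summed on the linear scale to 6709.9 (transgenic) and 4620.0 (control), with Cx3cr1, Fcgr1 and Itgam under the floor on both arrays. The brightest of them, Lyz2, C1qa and Csf1r, stood at 0.26, 0.38 and 0.81, and Cd14, the kept gene under 0, at -0.34. Stellate cell and fibroblast markers had a median of 0.87, with sums of 8606 and 4559.8. Of their 10 kept genes (12 listed) 9 were above 0 and 3 at least 2-fold higher, beside the same shares of 54.2% and 2.51%. The brightest, Rgs5 and Col6a3, stood at 0.95 and 1.41, and Col1a1 and Pdgfra were under the floor on both arrays. Dcn stood at -0.096, and Des at 0.035 with its other probe set at -0.53. The 4 kept Schwann cell markers (8 listed) were all above 0, where 54.2% of all kept genes were. Their median was 0.60 and their sums were 592.8 and 390.6, and Gfap and S100b were under the floor. Cdh19 passed 2-fold at 1.63 (6.21 against 4.58, the control value under the floor). Erbb3, Sox10 and Ngfr stood at 0.87, 0.33 and 0.25, with the other probe set of Sox10 at 0.13. Fibroblasts and Schwann cells can express Matn2, and stromal cells Tnfrsf11b. The part of these cells in the differences of both genes was not tested.

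Mast cells, which hold Tph1, left little signal. Of 9 listed mast cell markers 7 were under the floor on both arrays, the defining genes Cpa3 and Mcpt4 among them, and the kept genes Kit and Hdc stood at 0.50 and 0.28. Of 6 listed enterochromaffin markers 4 were kept, while Lmx1a was under the floor on both arrays and Fev had no probe set. Tac1 was past 2-fold on the lower side at -1.03, and Chga, at 13.84 and 14.05 (transgenic first), stood at -0.20. Trpa1 stood at -0.057 and Slc18a1, also in the serotonin list above, at 0.78. The 7 kept neuron markers (8 listed) had a median of 0.20 and none passed 2-fold. The part of these cells in the values of Tph2 was not tested. Beta cell markers had a median of 0.014 over 10 kept genes, 5 above 0 and 5 under it, and their sums were 93778 and 94510 (transgenic first). Alpha and delta cell markers had a median of 0.0090 (6 kept of 8). All 5 kept ductal markers (8 listed) were above 0, where 54.2% of all kept genes were, with a median of 0.26. Their sums of 7049.9 and 4395.3 were weighted towards the brightest, Prom1, at 12.17 and 11.07. Prom1 was past 2-fold at 1.11, while Krt7 and Krt19 stood at 0.085 and 0.32. The medians were 0.13 for acinar (7 of 10) and 0.082 for endothelial markers (9 of 10).

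**Figure D4:**
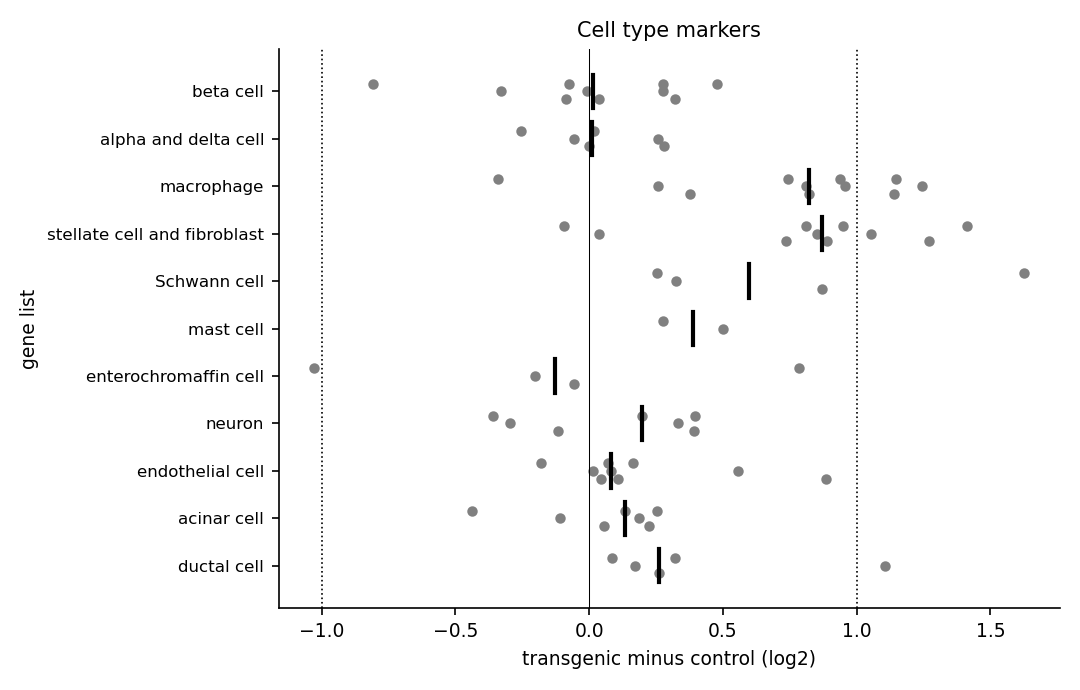
Transgenic minus control log2 difference (x axis) of the kept markers of 11 cell types (y axis), each point a gene, with the list median as a bar and dotted lines at 2-fold. Macrophage, stellate cell and Schwann cell medians stand at 0.82, 0.87 and 0.60, and the beta cell median at 0.014.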

How the data were processed

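The deposited log2 values were made by the authors with RMA in Affymetrix Expression Console, per the submitters' processing notes; tool versions are not given. RMA subtracts background, brings the arrays to 1 distribution and combines probes into probe sets, and it compresses differences near background and saturation. With 1 array per group, the number of arrays limits the precision. Gene symbols came from the platform annotation, brought up to date by Entrez Gene identifier with the GRCm38.p6 table. Of 45101 probe sets 34945 had 1 symbol (34741 matched by identifier), 932 had several and 9160 had none, beside 64 array controls. The file held 0 further sample columns. The probe set with the highest mean stood for a gene. Genes at or above the floor of 5.76 on at least 1 array were kept, and the size rule was 2-fold. Named genes were all members and, of each list, those past the rule and up to 4 others with large differences, and of marker lists up to 3 of the brightest. Ghr, Jak2, Stat5a, Stat5b, Ccnd2 and other genes given for their role, for being under the floor or for their direction were added with values known. The members and lists were chosen with earlier results of these data known. The procedure was run on simulated data as a check of the code only. The genes changed there had control values above the floor. The check therefore does not cover genes such as Tph2 and Tnfrsf11b, whose control values were under it. Python 3.11.15, numpy 2.4.6, pandas 2.3.3 and statsmodels 0.14.6 were used. Alternatives covered the probe set rule, the floor, the normalization and the size rule.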

Additional observations from a re-analysis of the deposited data

How the results depend on the processing

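No paired analysis was possible because each genotype has 1 array and the labels carry no replicate numbers. Of the members, 3 were 2-fold higher with no floor, without the probe set classes that can match several transcripts, with the lowess trend (span 0.3) subtracted and after a second quantile normalization. Under a 1.5-fold rule 3 were at least 1.5-fold higher. The count past 2-fold was 2 with probe sets averaged, 1 with the floor at the 75th percentile, 4 with the other probe set of Ivd and 2 with values under the floor raised to it, the last 2 settings chosen after seeing the data. No member was 2-fold lower under these settings. The contrast of medians, 1.72, ran from 1.49 to 1.75 with probe sets averaged or classes left out and under both other normalizations and was 0.93 with values raised to the floor. Over the 7 settings that give a difference per gene, the reported fit included, Matn2 ran from 2.02 to 2.12, Tph2 from 0.58 to 1.93, Tnfrsf11b from 1.01 to 1.79 and Men1 from -0.39 to -0.015. Over all kept genes 168 were 2-fold higher and 39 lower with the floor at the 75th percentile, 939 and 381 with a 1.5-fold rule, and 217 and 38 with probe sets averaged. The stricter floor keeps fewer genes and the looser fold takes in more; the cause of the fall with averaging was not tested. Values near background limit Tph2, Tnfrsf11b and Tph1.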

Other observations

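The STAT motif TTCNNNGAA was also counted in RefSeq promoter windows (GRCm38.p6) of the listed pathway genes. Bcl6, a transcriptional repressor and STAT5 target, held 3 matches and had a log2 difference of 0.41 (transgenic 7.53, control 7.12). Csn2, the milk protein beta-casein, held 1 and stood at -0.38, with its other probe set at -0.39. Igfals, which carries insulin-like growth factors in blood, held 1 and stood at 0.39. Socs3 held 1 and stood at -0.14, and Wipi1, an autophagy protein, held 1 and stood at 0.11. None of these passed 2-fold. Of the 240 genes with a window that were 2-fold higher 8.33% held a match, of the 45 that were 2-fold lower 13.3% (6 genes), and of all 9806 kept genes with a window 8.05%. No window with 2 or more matches was found among the 240, where 0.398% of all kept genes with a window held 2 or more. At so low a share nothing is read from this absence.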
